A study of Homo sapiens with 6 samples.

Results

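The peaks described here lay near the 5 prime end of protein-coding gene bodies. A peak was a member if it was at most 1000 nt wide, had a width that was a multiple of 25 nt, touched exactly 1 RefSeq coding gene body on GRCh38, and had its midpoint in the first of 10 equal segments of that body, read in the direction of the peak's own strand. Of 11655 peaks of these widths in exactly 1 coding gene body, 846 were members, in 552 genes. The 3 deposited lists that were compared held 17375 peaks in all. The rule used the position, width and strand of a peak and no score or condition.

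The lists come from methylated RNA immunoprecipitation sequencing (meRIP-seq) of U-251 MG, an established human glioblastoma cell line. In this assay an antibody against N6-methyladenosine (m6A) enriches RNA fragments, which are compared with input RNA. The 3 conditions were shNC, the control, shTRA2A, a knockdown of the splicing regulator TRA2A, and shMETTL3, a knockdown of the m6A writer METTL3. Each had 1 immunoprecipitated and 1 input library and 1 peak list, so there is no replicate spread, no test between conditions was possible, and every difference below is a difference between these lists. The labels name no clone, hairpin sequence or time after transduction. The peak lists hold no expression level, so neither knockdown was checked here.

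METTL3 is the catalytic subunit of the complex that writes m6A within messenger RNA, mostly at adenosines in a GGAC-like context. Such sites are known to concentrate in long internal exons and around stop codons, toward the 3 prime end of transcripts. The first transcribed adenosine next to the cap can carry a related mark, m6Am, which the enzyme PCIF1 writes and which m6A antibodies also bind. A meRIP peak near a gene start can therefore hold either mark, and the assay alone does not tell them apart.

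To show what lay at the starts that members reached, 6 RefSeq starts (GRCh38.p14) are printed, chosen by the highest control score among members touching the window from 250 nt before to 50 nt after a RefSeq start. Each line runs 5 prime to 3 prime on the strand of the gene. Lower case marks the 70 bases before the start, and capitals mark the first 30 transcribed bases. Transcribed, here and below, goes by the RefSeq start, and whether RNA begins there in these cells was not tested.
DNHD1: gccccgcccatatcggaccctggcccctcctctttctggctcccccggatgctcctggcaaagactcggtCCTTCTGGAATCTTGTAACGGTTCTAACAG
EHBP1: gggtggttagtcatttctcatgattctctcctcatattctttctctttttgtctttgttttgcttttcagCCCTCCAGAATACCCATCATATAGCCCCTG
ACIN1: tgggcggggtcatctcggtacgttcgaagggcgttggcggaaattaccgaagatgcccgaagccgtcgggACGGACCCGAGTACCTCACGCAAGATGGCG
PCDHB9: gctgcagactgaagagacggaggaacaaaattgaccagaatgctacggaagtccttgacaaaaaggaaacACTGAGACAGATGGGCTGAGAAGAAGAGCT
SSR1: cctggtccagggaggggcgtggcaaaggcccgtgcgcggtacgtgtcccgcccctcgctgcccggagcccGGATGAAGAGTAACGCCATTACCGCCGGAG
SRI: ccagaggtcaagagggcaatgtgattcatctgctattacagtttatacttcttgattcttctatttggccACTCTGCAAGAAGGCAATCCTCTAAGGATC
The DNHD1 stretch is chr11:6497210-6497309 (plus strand), and the control peak chr11:6497260-6497309 ends at its last base, as did the shMETTL3 peak. DNHD1 encodes a dynein heavy chain domain protein. The SSR1 stretch, chr6:7313170-7313269 (minus strand), was crossed by the control peak chr6:7313152-7313226, which covered the start of this gene for a subunit of the translocon-associated complex. The SRI stretch, chr7:88226947-88227046 (minus strand), met the control peak chr7:88226918-88226967 in this gene for the calcium-binding protein sorcin. The PCDHB9 stretch is chr5:141187091-141187190 (plus strand), with the control peak chr5:141187169-141187268 beginning 8 nt after the start of this protocadherin gene. In EHBP1, an EH domain-binding adaptor (chr2:62706827-62706926, plus strand), and in ACIN1, the apoptotic chromatin condensation factor (chr14:23095107-23095206, minus strand), the control peaks chr2:62706936-62707085 and chr14:23095005-23095104 began 39 and 32 nt after the start. The EHBP1 and ACIN1 peaks thus lay just past the printed bases. Their printed starts lie inside the gene bodies, which begin at chr2:62673878 and chr14:23095614. The 6 control scores ran from 10.8 in SRI to 19.4 in DNHD1.

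Few members reached such a window. It was touched by 21 of 420 shNC members (5.00%, exact Clopper-Pearson 95% interval 3.12 to 7.54%), 10 of 148 shTRA2A members (6.76%, 3.29 to 12.1%) and 27 of 278 shMETTL3 members (9.71%, 6.50 to 13.8%), with windows at hand for 354, 119 and 223 of them. All intervals in the text are of this kind. They cover counting error only and treat peaks as independent, which peaks of the same gene are not. A window was matched on the strand of its gene, so a member on the other strand could not touch one. Of members on the annotated strand, 7.24% (shNC), 9.26% (shTRA2A) and 13.6% (shMETTL3) touched one. The window also reached only 50 nt past a start, which limits these shares. Pooled over the lists, the 60 windows touched lay near the 22199 windows of coding genes in the sequence features counted. With 60 windows the intervals are wide. The first transcribed base was A in 32 of 60 (53.3%, 40.0 to 66.3%), against 50.1% of coding windows. The motif GGAC, read on the strand of the gene, was present in 65.0% of the 60 against 69.3%, and on either strand in 88.3% against 89.9%. The longer motif GGACT, every copy of which also counts as a GGAC, was present on the gene's strand in 26.7% against 25.8%, and on either strand in 46.7% against 45.3%. Within the 50 transcribed bases alone, GGAC was found in 23.3% against 19.8%. The median GC content was 63.7% against 62.3%. By list it was 59.3% in 21 shNC, 70.5% in 10 shTRA2A and 63.7% in 31 shMETTL3 windows. GGACT on the gene's strand was present in 38.1% (18.1 to 61.6%), 20% (2.52 to 55.6%) and 19.4% (7.45 to 37.5%) of these.

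The 3 lists differ in size and in their scores. They held 9206 shNC, 2736 shTRA2A and 5433 shMETTL3 peaks, of which 6616, 1636 and 3403 met the width rule in exactly 1 coding gene. The authors' score, whose scale is not stated, had a median of 12.4, 7.998 and 8.404. A score is used below to rank peaks within a list, as a percentile over all peaks of that list, and scores of different lists are not on a common scale. Read depth was not given in the sources used here. Among peaks that met the width rule in exactly 1 coding gene, markers of other brain and blood cells had none for 13 of 13 genes. Of glial and glioma markers, 4 of 9 had such a peak, as did 4426 of all 20056 coding genes. A peak is not an expression level, so these counts do not check the identity of the cells.

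In every list the members were a small part of the peaks, and their share was larger in both knockdown lists than in the control list. They made up 420 of 6616 shNC peaks (6.35%, 5.77 to 6.96%), 148 of 1636 shTRA2A peaks (9.05%, 7.70 to 10.5%) and 278 of 3403 shMETTL3 peaks (8.17%, 7.27 to 9.14%). Both knockdown intervals lay above the control interval. For shMETTL3 this did not hold in the better-scoring 50% of each list (5.36 to 7.78% against 4.53 to 6.13%) or among peaks up to 200 nt wide (7.24 to 9.19% against 6.02 to 7.38%). Just past the limit of the rule, the second segment held 293 shNC (4.43%), 89 shTRA2A (5.44%) and 171 shMETTL3 peaks (5.02%), so the first segment held more peaks than the second in each list. The last segment held far more, at 37.1%, 29.2% and 32.3%. On peaks lying on the annotated strand of their gene alone, the first segment held 5.40%, 8.19% and 7.30%. Of all genes with a peak in the list, 9.39% of shNC genes (309 of 3291), 10.9% of shTRA2A genes (131 of 1198) and 10.5% of shMETTL3 genes (233 of 2224) had a member. By genes, then, the lists lay closer together than by peaks.

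**Figure D1:**
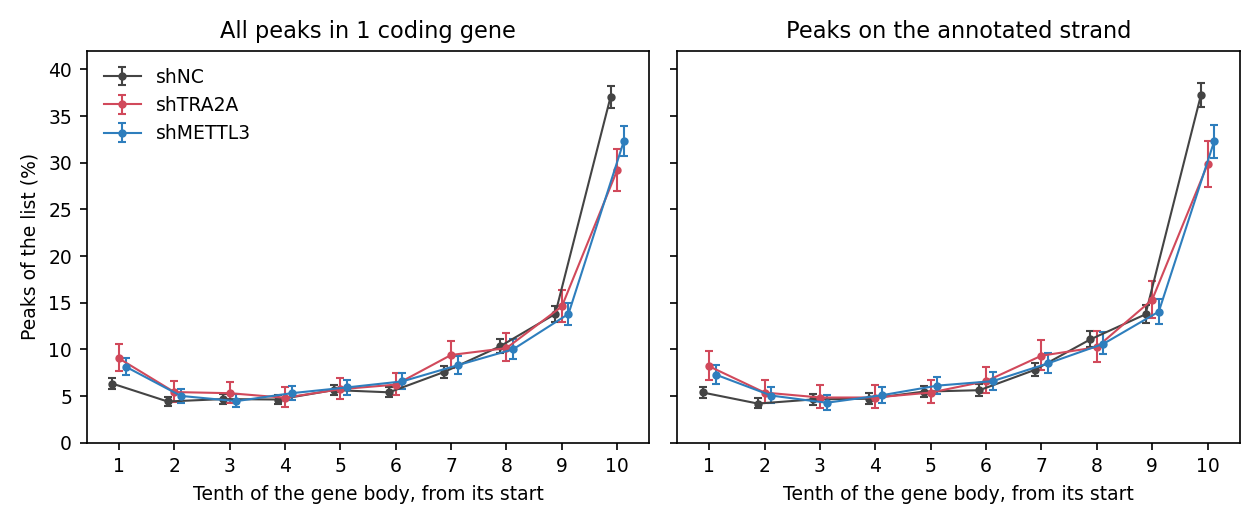
Share of each list's peaks (percent, y axis) by segment of the gene body from its start, each 1 of 10 equal parts (x axis), for all peaks in 1 coding gene (left) and those on the annotated strand (right); points are 1 list each and bars are exact 95% intervals for counting error. The first segment held 6.35% (shNC), 9.05% (shTRA2A) and 8.17% (shMETTL3) of the peaks, and the last segment held 37.1%, 29.2% and 32.3%.

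The label was checked against the strand of the gene, since the rule took direction from the peak. The tables gave a RefSeq strand to 354 of 420 members in shNC, 119 of 148 in shTRA2A and 223 of 278 in shMETTL3. On the annotated strand were 290 of 354 (81.9%, 77.5 to 85.8%), 108 of 119 (90.8%, 84.1 to 95.3%) and 199 of 223 (89.2%, 84.4 to 93.0%). In the middle 8 segments of gene bodies the share was 96.4%, 96.5% and 96.3%, and in the last segment 99.1%, 97.3% and 97.6%. The label thus does not hold for 64 shNC, 11 shTRA2A and 24 shMETTL3 members, which by the annotated strand lay in the last segment of their gene, opposite to its transcript. Peaks on both strands were common at these places. A peak of the same list on the other strand overlapped 49 of the 64 (76.6%), 5 of the 11 and 16 of the 24, against 6 of 290 (2.07%), 7 of 108 (6.48%) and 11 of 199 (5.53%) members on the annotated strand. A long non-coding gene body on the strand of the peak, where RefSeq gave that strand, was touched by 23 of the 64 control peaks (35.9%), against 4 of 290.

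**Figure D2:**
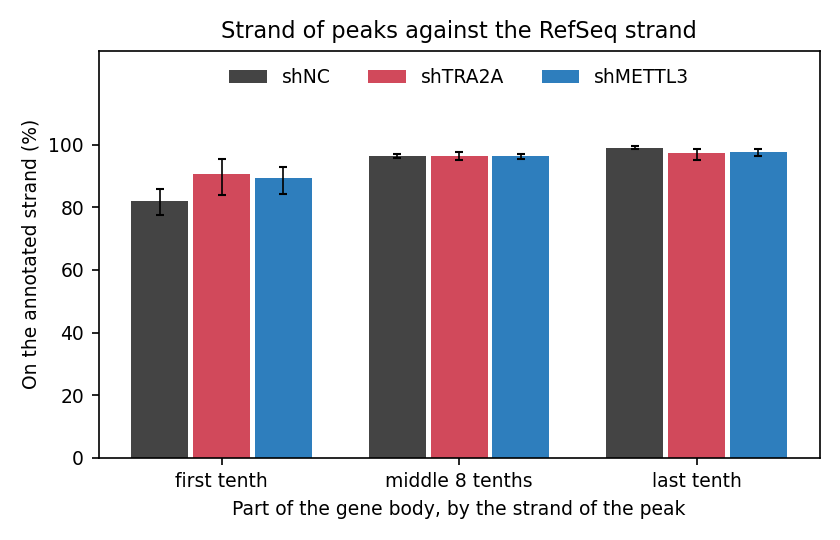
Share of peaks on the RefSeq strand of their gene (percent, y axis) by part of the gene body (x axis) in the 3 lists, with exact 95% intervals for counting error. First-segment peaks were on the annotated strand in 81.9% (shNC), 90.8% (shTRA2A) and 89.2% (shMETTL3), below the 96.3% to 99.1% of the other parts.

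Several genes gave opposite-strand members again and again. PRICKLE1, a planar cell polarity gene, had 5 in shNC and 2 in shMETTL3, at chr12:42459586-42459910 with a control score of 26.9 and a shMETTL3 score of 7.91. Its paralog PRICKLE2 had 4, and the gene for the actin-binding protein AFAP1 had 5. EFNB2, which encodes the guidance ligand ephrin-B2, had 5 over all lists, with chr13:106491247-106491546 at a control score of 29.5 and a shTRA2A score of 11.4. XAF1, an interferon-induced antagonist of the apoptosis inhibitor XIAP, had 4, all in shNC, with scores from 13.9 to 57.1. All known-strand members of these genes were on the opposite strand. These places are the 3 prime ends of the named genes, and they are kept out of the accounts of single genes below unless named as opposite.

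**Figure D3:**
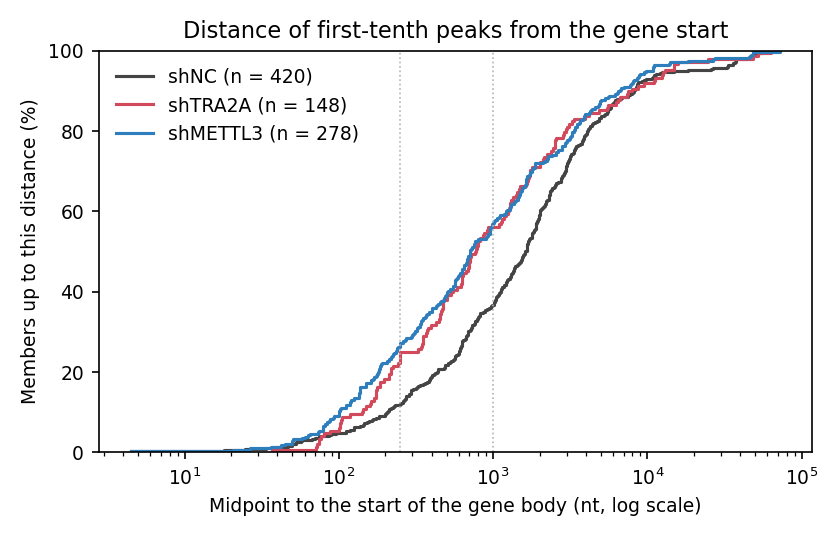
Cumulative share of first-segment peaks (percent, y axis) by distance of the midpoint from the start of the gene body (nt, log scale, x axis) for 420 shNC, 148 shTRA2A and 278 shMETTL3 peaks; dotted lines mark 250 and 1000 nt. At 250 nt the knockdown curves lie above the control curve, with 25% and 27.3% against 12.1% of members within 250 nt.

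Members of the knockdown lists lay closer to the gene start than those of the control list. The median distance of the midpoint was 1614 nt in shNC (quartiles 602.5 and 3355 nt), 768.5 nt in shTRA2A (308 and 2392 nt) and 710.8 nt in shMETTL3 (234 and 2617 nt). Within 250 nt of the start lay 51 of 420 shNC members (12.1%, 9.18 to 15.7%), 37 of 148 shTRA2A members (25%, 18.3 to 32.8%) and 76 of 278 shMETTL3 members (27.3%, 22.2 to 33.0%). Both knockdown intervals lay above that of the control. Within 1000 nt the shares were 36.7%, 56.1% and 56.8%. Members on the annotated strand alone gave 13.8%, 26.9% and 28.6% within 250 nt. Among the 148 best-scoring members of each list the shares were 3.38%, 25% and 26.4%. For shTRA2A these 148 are all its members, so this cut by score was not alike between lists. Members that scored in the upper 50% of their own list gave 3.61%, 26.5% and 26.6%. By either cut, few of the best-scoring control members lay at gene starts. With members above 75 nt wide alone, the control share was 6.35%.

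The median member was 75 nt wide in every list. Control peaks of the middle 8 segments and the last segment had a median of 100 nt, and those of the knockdown lists 75 nt. A width of at most 75 nt was found for 55.0% of the control members, 64.9% of those of shTRA2A and 62.6% of those of shMETTL3. By score the members had a median percentile of 40.0 in shNC, 46.9 in shTRA2A and 39.8 in shMETTL3, against 49.1, 49.3 and 50.5 in the middle 8 segments and 46.0, 50.9 and 49.5 in the last segment. Their gene bodies had median lengths of 59584, 59165 and 55370 nt.

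Sites shared between lists were counted where a member and any peak of the other list had at least 1 base in common on the same strand. Of shTRA2A members, 40 of 148 (27.0%, 20.1 to 34.9%) met a control peak, where the background over all 1636 peaks was 41.1%. Of shMETTL3 members, 70 of 278 (25.2%, 20.2 to 30.7%) did so, where the background was 39.3%. The intervals lay below those of the middle 8 segments of the same lists, which were 36.8 to 42.9% for shTRA2A and 37.6 to 41.9% for shMETTL3, and the last segment stood at 48.3% and 42.1%. Members on the annotated strand alone met a control peak in 26.9% (shTRA2A) and 25.1% (shMETTL3). Members above 75 nt wide met a control peak in 42.3% (shTRA2A, 28.7 to 56.8%) and 39.4% (shMETTL3, 29.98 to 49.5%), where all peaks of that width gave 54.3% and 56.3%. The shMETTL3 interval again lay below that of the middle 8 segments at that width (56.3 to 63.6%), while the shTRA2A interval overlapped it (51.5 to 62.8%). Between the knockdown lists, 32 of 148 shTRA2A members (21.6%, 15.3 to 29.1%) met a shMETTL3 peak, with a background of 27.1%. In the other direction 33 of 278 shMETTL3 members (11.9%, 8.31 to 16.3%) met a shTRA2A peak, with a background of 12.6%. Members above 75 nt wide gave 40.4% and 20.2%, next to 45.7% and 20.9% of all peaks of that width.

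From the side of the control, 36 of 420 members (8.57%, 6.08 to 11.7%) were found in shTRA2A, next to a background of 8.60%, and 58 of 420 (13.8%, 10.7 to 17.5%) in shMETTL3, next to a background of 17.3%. The first share equals its background. The wider members, above 75 nt, gave 13.2% and 24.9%, next to 12.7% and 26.1%. A peak in both other lists met 19 shNC members (4.52%, background 4.79%), 21 shTRA2A members (14.2%, background 20.2%) and 21 shMETTL3 members (7.55%, background 9.52%). Neither other list held an overlapping peak for 82.1% of the shNC members (background 78.9%), 65.5% in shTRA2A (background 52.0%) and 70.5% in shMETTL3 (background 57.6%). The lists share no normalization, and how far list size and peak width set these shares was not tested.

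**Figure D4:**
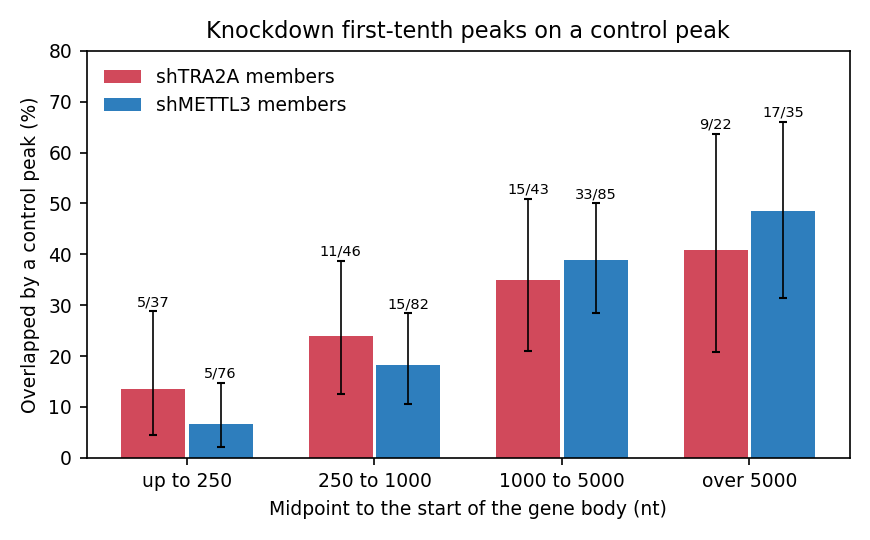
Share of knockdown first-segment peaks that overlapped a control peak (percent, y axis) by distance of the midpoint from the start of the gene body (nt, x axis), with exact 95% intervals for counting error and the counts above the bars. Within 250 nt the share was 13.5% (shTRA2A) and 6.58% (shMETTL3), and beyond 5000 nt it was 40.9% and 48.6%.

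For knockdown members, the overlap with the control list was lowest next to the start. Within 250 nt, 5 of 37 shTRA2A members (13.5%, 4.54 to 28.8%) and 5 of 76 shMETTL3 members (6.58%, 2.17 to 14.7%) met a control peak. From 250 to 1000 nt the counts were 11 of 46 (23.9%) and 15 of 82 (18.3%). From 1000 to 5000 nt they were 15 of 43 (34.9%) and 33 of 85 (38.8%, 28.4 to 50.01%), and beyond that 9 of 22 (40.9%) and 17 of 35 (48.6%, 31.4 to 66.0%). For shMETTL3 the intervals of the nearest and the farthest class did not overlap, whereas for shTRA2A they did. On the annotated strand alone, 3 of 29 and 3 of 57 members within 250 nt met a control peak (10.3% and 5.26%). Of the same 37 shTRA2A members, 10 (27.0%, 13.8 to 44.1%) met a shMETTL3 peak, the same share as the background of 27.1%, and 9 of the 76 shMETTL3 members (11.8%, 5.56 to 21.3%) met a shTRA2A peak, close to the background of 12.6%. Control members next to the start were also rarely met. Within 250 nt, 3 of 51 shNC members (5.88%, 1.23 to 16.2%) met a shTRA2A peak and 4 of 51 (7.84%, 2.18 to 18.9%) a shMETTL3 peak. Beyond 5000 nt, 8 of 68 (11.8%) and 12 of 68 (17.6%) did so, with overlapping intervals.

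At the level of genes, those with a member were looked up in the other lists, where any peak in the body counted, the first segment included. Of the 309 control genes, 33.0% had any peak in shTRA2A and 54.7% in shMETTL3, where all control peak genes gave 30.2% and 49.3%. Of the 131 shTRA2A genes, 63.4% had a control peak, against 72.5% of all genes of that list, and of the 233 shMETTL3 genes 58.4%, against 68.3%. A first-segment peak in the other list was among these for 39 of the 102 control genes with a shTRA2A peak and 68 of the 169 with a shMETTL3 peak. A peak in the last segment of the same gene was found for 103 of 309 shNC genes (33.3%), 17 of 131 shTRA2A genes (13.0%) and 48 of 233 shMETTL3 genes (20.6%). Among peaks held to the same width and gene rules as members, all those of the gene lay in the first segment for 43.4%, 78.6% and 61.8%. Listed peaks that failed these rules were left out, so such a gene can have a further peak elsewhere. In the shorter lists a gene has fewer peaks to place, and how far this sets these shares was not tested.

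A first-segment peak in all 3 lists was found in 20 genes. CCDC80, which encodes a secreted matrix protein, had 5 control, 3 shTRA2A and 3 shMETTL3 members, all on the annotated strand. Its strongest, chr3:112640594-112641043 on the minus strand, had a control score of 63.4 (98.2nd percentile of the list) and met shTRA2A and shMETTL3 peaks of score 13.6 and 11.1. Those knockdown peaks were narrower, at 275 and 225 nt against 450 nt, and lay inside or across the control peak. A further CCDC80 peak, chr3:112638134-112638333, had the same borders in shNC and shMETTL3 and was split into 2 peaks in shTRA2A.

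NR2F1, an orphan nuclear receptor and transcription factor, held the highest-scoring member of the shMETTL3 list. Its control peak chr5:93583322-93583896 (plus strand, 575 nt) had a score of 43.8 (95.7th percentile). The shTRA2A peak chr5:93583497-93583846 had a score of 11 (89.8th percentile). The shMETTL3 peak chr5:93583647-93583846 had a score of 57.7 (99.8th percentile), with a second peak of score 13.2 next to it. All 4 lay between 337 and 524.5 nt from the gene start by midpoint, and each knockdown peak lay inside the control peak, so the site ranked high in every list.

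**Figure D5:**
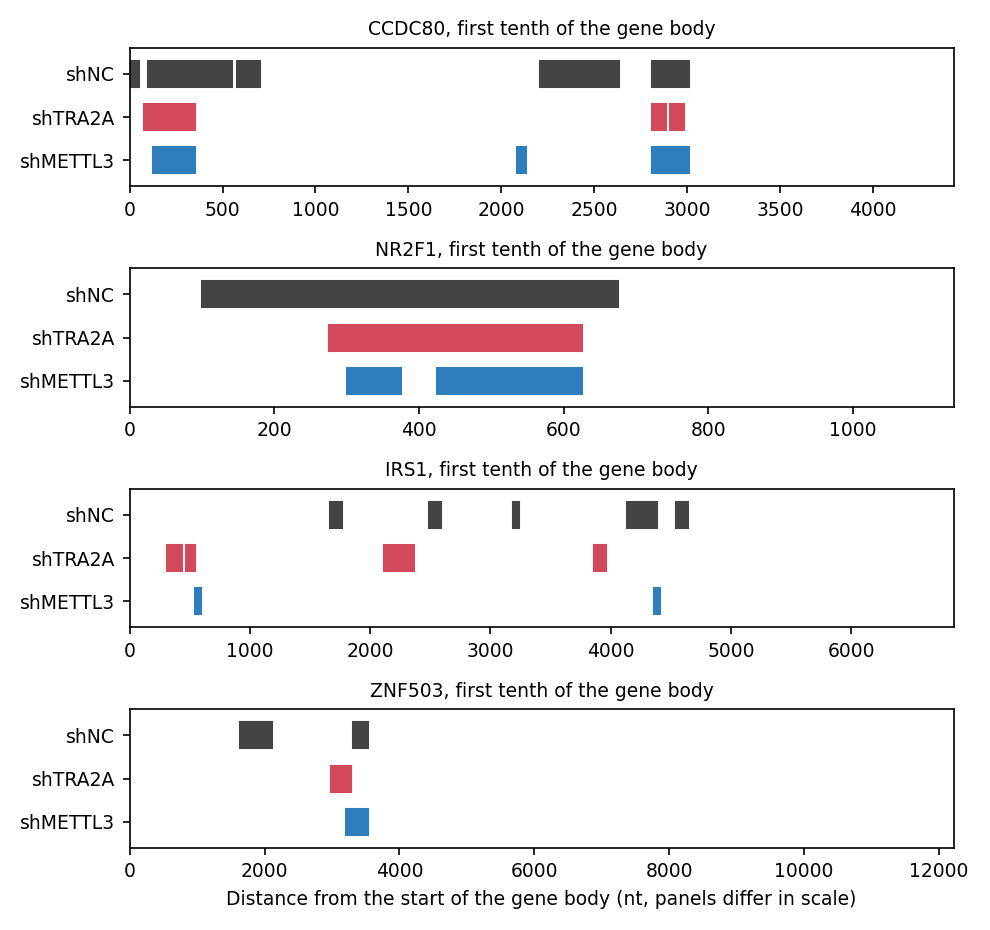
Peaks (bars) of the 3 lists along the first segment of CCDC80, NR2F1, IRS1 and ZNF503, by distance from the start of the gene body in the direction of transcription (nt, x axis, panels differ in scale). In NR2F1 all lists meet at the same place, whereas in IRS1 only 1 control and 1 shMETTL3 peak overlap between lists.

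IRS1, the adaptor that carries signals from the insulin and IGF1 receptors to PI3K, showed the opposite arrangement. It had 5 control, 4 shTRA2A and 2 shMETTL3 members, all on the annotated minus strand. The strongest control peak, chr2:226795432-226795681 (score 21.0), met 1 shMETTL3 peak, chr2:226795407-226795456 (score 8.12), and no other pair of IRS1 members overlapped. The 2 shTRA2A peaks nearest the start, chr2:226799382-226799506 and chr2:226799282-226799356, had scores of 7.57 and 7.37 and no control peak beneath them. ZNF503, a zinc finger transcriptional regulator, had 4, 2 and 3 members. Its strongest control peak, chr10:75398383-75398607 (score 28.7), met 2 shMETTL3 peaks of score 11.5 and 6.64 and no shTRA2A peak. The shTRA2A peak chr10:75398633-75398707 (score 7.82) met a shMETTL3 peak of score 8.29 beside the control peak.

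RANBP2, a nucleoporin and SUMO ligase, had the most members of any gene, with 8 control, 2 shTRA2A and 4 shMETTL3 peaks. Its gene body in the table is 1122820 nt long, and the members lay 44141.5 to 63133 nt from its start, so the first segment here is not the neighbourhood of the start. The strongest, chr2:108767474-108767823, had scores of 38.9, 9.91 and 10.3 in shNC, shTRA2A and shMETTL3. MEIS2, a homeobox factor, had 2, 2 and 3 members, and chr15:37099541-37099640 had a control score of 17.9, with 11.9 and 6.49 at the overlapping peaks of shTRA2A and shMETTL3. PHF14, a PHD finger protein, had a control peak at chr7:10982540-10982689 of score 41.1, with a shTRA2A peak of 14.6 and a shMETTL3 peak of 12.3. In NRP2, a semaphorin and VEGF co-receptor, the peak chr2:205683146-205683270 had the same borders in all 3 lists, at scores of 23.5, 5.63 and 12.8. By rank the NRP2 site fell at the 83.7th percentile in shNC, the 1.17th in shTRA2A and the 83.4th in shMETTL3. ZNHIT6, a factor in box C/D snoRNP assembly, also had a peak of identical borders in the 3 lists, chr1:85707756-85707855, with scores of 19.9, 5.92 and 5.82. Both ZNHIT6 knockdown scores lay below the lower quartile of members of their list (7.57 in shTRA2A, 6.91 in shMETTL3). The shMETTL3 score of MEIS2 did so too.

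Other control members met by both knockdown lists were in GPBP1, a promoter-binding factor (chr5:57175959-57176308, scores 52.9, 8.94 and 10.5), SOCS2, a suppressor of cytokine signalling (chr12:93574659-93574933, 52.6, 9.46 and 17.2), and TWNK, the mitochondrial DNA helicase (chr10:100987842-100988041, 22.5, 9.22 and 6.64). In shMETTL3 the TWNK score lay below the lower quartile of members of that list (6.91). The strand of SOCS2 and TWNK was not known from the tables used. These sites were among the control list's better-scoring peaks, but the selection was by control score.

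The strongest control members were a mixed set. N4BP2L2 held the highest score, 118, at chr13:32535950-32536949, which is exactly 1000 nt wide and whose strand was not known. It met shMETTL3 peaks of score 14.2 and 10.1. SKIL, a SMAD co-repressor, had chr3:170360282-170360981 at 75.9, with a shMETTL3 peak of 13.2 and no shTRA2A peak. NSD1, a histone H3 lysine methyltransferase, had chr5:177135394-177135993 at 64.6, with a shMETTL3 peak of 11.7 and none in shTRA2A. Others of this set were on the opposite strand, namely NFYA (a subunit of the CCAAT-binding factor, 102), EP300 (a histone acetyltransferase, 83.9), TUG1 (74.5, listed as coding in the table and best known as a long non-coding RNA) and XAF1 (57.1). NFYA and EP300 had 75 nt peaks with no peak of the other strand and none in either knockdown list. Of the control members met by neither knockdown list, the strongest on the annotated strand were in the ubiquitin ligase genes RNF6 (chr13:26215243-26215592, 48.1) and BIRC2 (chr11:102350086-102350485, 31.3).

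The strongest shTRA2A members lay in ASPHD1 (chr16:29900575-29901074, score 19.2, with a control peak of 12.3 and a shMETTL3 peak of 4.38) and PLEKHA4 (chr19:48868207-48868531, 17.7, with a shMETTL3 peak of 9.63 and no control peak). The next was UPF2, a nonsense-mediated decay factor, at chr10:12035079-12035328 with a score of 16.6. There the control list had a single peak 6659 nt wide with a score of 104, which is too wide to be a member, and shMETTL3 had a peak of 7.10. Without a control peak beneath them were TMEM45A (chr3:100492844-100492893, 12.8), ZNHIT6 at a second place (chr1:85708006-85708205, 12.7) and TRIM41, a ubiquitin ligase (chr5:181224098-181224297, 12). SHROOM3 (14.2) was on the opposite strand, and the strand of ASPHD1 and PLEKHA4 was not known here.

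The strongest shMETTL3 members after NR2F1 met no peak of the other lists. NRP1, a semaphorin and VEGF co-receptor like NRP2, had chr10:33334341-33334390 at 39.0, and the strand of this gene was not known here. SKAP2, an adaptor of Src family kinases, had chr7:26858094-26858143 at 31.8. CD47, the surface ligand that inhibits phagocytosis, had chr3:108090874-108090948 at 29.8, 120 nt from the start. NEMP2 (chr2:190640959-190641033, 29.5), TRIM41 (chr5:181223573-181223672, 26.6) and HSP90B1, the chaperone of the endoplasmic reticulum (chr12:103932113-103932162, 25.4), followed. These 6 peaks were 50 to 100 nt wide. ASPHD1 had a narrow member of score 23.3 at chr16:29900425-29900474, beside the wider peak that the other lists also held. TRIM41 thus had a member in both knockdown lists, at different places and with no control member.

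Of 148 shTRA2A members, 11 (7.43%, 3.77 to 12.9%) met a shMETTL3 peak and no control peak, next to a background of 6.91%. Of the 11, 7 lay within 250 nt of the gene start, next to 37 of all 148 shTRA2A members (25%). The 11 had to meet no control peak, and control peaks were met least often within 250 nt, so the choice itself favours that distance. These 11 were chosen after their values were seen, and both knockdown lists are set against the same control list. In ZNF581, a zinc finger gene, shTRA2A had a score of 8.61 at chr19:55635041-55635315 and shMETTL3 a score of 21.6. In STC2, the secreted glycoprotein stanniocalcin 2, the scores were 8.43 at chr5:173328276-173328350 and 7.45. In HCFC1, a cell cycle regulator that binds chromatin-modifying complexes, they were 9.44 at chrX:153971133-153971407 and 9.11. CREB1, the cAMP response factor, had 7.87 at chr2:207530037-207530086 and 9.45, and CNOT6, a deadenylase subunit, 6.97 at chr5:180494429-180494478 and 6.45. PLEKHA4, ECHDC1 and SERTAD3 also lay within 250 nt, whereas HCFC1 (548 nt), FBXW4 (475 nt), ARSJ (503 nt) and ZNF503 (3246 nt) lay farther from the start. By rank within shTRA2A the 11 ran from the 3.40th percentile (CNOT6) and 4.77th (SERTAD3) to the 98.1st (PLEKHA4). The median of all shTRA2A members was 46.9. Of the 11, 6 were 75 nt wide or less, where the median shTRA2A member was 75 nt wide. The strand of PLEKHA4 and HCFC1 was not known here.

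Of the genes the study turns on, TRA2A had 1 member, in the list of its own knockdown. It lay at chr7:23531618-23531667, was 50 nt wide with a score of 7.57 (22.3rd percentile), lay 338.5 nt from the start, and met no peak in the other lists. The strand of this gene was not known from the tables. METTL3, IFIT1, IFIT2, IFIT3, IFIT5 and EGFR had no member in any list.

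Counts over gene lists were set beside all genes with a peak that met the width rule in exactly 1 coding gene. Of these genes, 552 of 4426 (12.5%) had a member in some list. Of m6A writer genes and other RNA methyltransferases, 1 of 7 had one. This was RBM15, the subunit that helps place the writer complex, with a control peak at chr1:110339956-110340005 (10.3) and a shMETTL3 peak at chr1:110340031-110340155 (9.01) that did not overlap. None of 14 genes of cap methylation, m6A demethylases and readers with a peak had a member. Chromatin remodellers, acetyltransferases and DNA methylation enzymes had members in 9 of 26, with 7 of 25 in shNC, 0 of 10 in shTRA2A and 5 of 18 in shMETTL3. Over all genes with a peak in the list, the shares were 9.39%, 10.9% and 10.5%. The 7 shNC genes had from 1 (TET3) to 10 (ARID1A and KAT6A) control peaks under the same width and gene rules. How far the number of peaks per gene sets these counts was not tested. On the annotated strand were 6 of the 9, among them ARID1A, a SWI/SNF subunit, with scores of 7.24 in shNC and 6.47 in shMETTL3 at overlapping peaks. Both were weak calls. The lowest score of control members on the annotated strand was 7.24 (percentile 0.0543 of the list). The lower quartile of shMETTL3 members on that strand was 6.99.

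Histone lysine methylation enzymes had members in 3 of 25 (NSD1, KDM4A and KMT2B), and ZNF genes in 16 of 233. Cell cycle genes had 2 of 16, of which KIF14, a mitotic kinesin, had chr1:200617736-200618210 at a control score of 29.8 and a shMETTL3 score of 9.86. Extracellular matrix and adhesion genes had 4 of 23, with FN1 (fibronectin), LAMB1 (a laminin chain) and ITGB8 (an integrin) in shMETTL3 and FAT4 (a cadherin, of unknown strand here) in shNC. Immediate early and growth control factors had 1 of 25 (SOX4), SR proteins and splicing factors 2 of 15 (TRA2A, of unknown strand, and the opposite-strand SRPK1), and receptor kinase signalling 1 of 20 (IRS1). Interferon-stimulated genes had 1 of 17 (the opposite-strand XAF1), endocytosis genes 1 of 13 (the opposite-strand RAB8A), translation factors 2 of 9 (the opposite-strand EIF4B and PABPC1, of unknown strand) and ribosomal proteins 1 of 13 (RPL3). None of the 4 glial and glioma markers with a peak had a member.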

How the data were processed

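Per the labels, fragmented total RNA of U-251 MG cells was immunoprecipitated or kept as input, made into stranded libraries and sequenced in pairs. GRCh38, HISAT2 2.2.1, featureCounts 2.0.1 and SAMtools appear in the submitters' processing notes. Caller, thresholds and depth were not given in the sources used here. Deposited BED lists carry a score per peak from the authors' caller, of unstated scale, used here to rank within a list. A further deposited list matches no label, equals the shTRA2A list byte for byte, and was not used.

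Gene bodies came from a RefSeq table (GRCh38.p14, 20056 coding genes), and strand and start windows from a second table, which gave a strand for 15843 of them. Exons and introns were not analysed here. Members could overlap any peak of another list, of any width, and overlap was judged by outer borders alone. Coordinates count from 1. Shares, exact Clopper-Pearson 95% intervals, medians and overlaps were computed with Python 3.11.15, numpy 2.4.6, pandas 2.3.3, scipy 1.17.1 and matplotlib 3.10.9. Positions and overlaps were tested on simulated data, the overlaps against bedtools 2.31.1.

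The members, gene lists and alternatives were chosen with earlier results of these data known, and the distance comparison and its alternatives were added after the peaks were seen. Named genes were, per list, the 8 best-scoring members, the 10 best control members met by both knockdown lists, the 5 best knockdown members without a control peak, the 5 best control members met by neither, the 5 genes with most members, up to 4 per gene list, and 7 genes of the study. The other genes named, among them those with opposite-strand members, were chosen after their values were seen. Alternatives changed the position rule, the overlap rule, the strand, the width and the score.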

Additional observations from a re-analysis of the deposited data

How the results depend on the processing

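No paired analysis was possible because each condition has 1 peak list and 1 library pair, and leaving out a replicate was not possible either. Of 119 alternatives, 85 left the value within its interval and 34 moved it outside. Each value is a share or median of members of a single list, so a change of direction was not scored. With the first 5% of the body the shares were 4.08%, 6.36% and 6.05% (shNC, shTRA2A, shMETTL3), with the first 20% 10.8%, 14.5% and 13.2%, and with midpoints within 1000 nt 3.20%, 6.36% and 5.79%. The control share was 5.54% with direction from RefSeq and 5.40% on the annotated strand, and the better-scoring 50% of each list gave 5.29% for shNC and 6.49% for shMETTL3. Where 50% of the member had to be covered, shNC members met 5.24% (shTRA2A) and 8.33% (shMETTL3).

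Members above 75 nt wide gave 13.2% and 24.9% for shNC in shTRA2A and shMETTL3, 42.3% and 40.4% for shTRA2A in shNC and shMETTL3, and 39.4% and 20.2% for shMETTL3 in shNC and shTRA2A. With only first-segment peaks of the other list, the gene shares in the same order were 12.6%, 22.0%, 29.8%, 26%, 29.2% and 14.6%. For peaks within 1000 nt of the start, the median score percentile was 30.3 (shNC), 54.9 (shTRA2A) and 34.1 (shMETTL3), and 91.0% of shNC and 96.1% of shMETTL3 peaks were on the annotated strand. The control share within 250 nt was 3.61% in the better-scoring 50%, 6.35% above 75 nt wide and 3.38% among the best 148 members. The cause of these moves was not tested. Depth is unknown, so a peak missing from a shorter list does not show that the RNA was unmodified there.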
